A study of Mus musculus with 6 samples.

Results

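The expression of 10 regulators and products of the adipogenic, osteogenic and chondrogenic fates was compared between *Hnrnpa2b1* KO and WT C2C12 cells that had been put into muscle differentiation. The genes were taken by symbol from a table of 46078 genes, and each symbol matched 1 row. *Pparg*, *Cebpa*, *Cebpb*, *Cebpd*, *Fabp4* and *Prdm16* stand for white and brown fat, *Runx2*, *Sp7* and *Alpl* for bone, and *Sox9* for cartilage. In KO cells *Cebpb* was 1.89-fold and *Cebpa* 2.36-fold higher, and *Alpl* rose from 8 counts in the 3 WT libraries together to 245 in the 3 KO libraries, 185 of them in KO1. None of these 3 rises kept an adjusted p under 0.05 in edgeR when any 1 WT library was left out. Other tested genes within 5 Mb of *Cebpb* had a median log2 fold change of 0.55. *Pparg*, *Cebpd* and *Sox9* overlapped between the genotypes, as did *Runx2*, whose KO mean was higher. *Fabp4*, *Prdm16* and *Sp7* had 4 counts or fewer in every library.

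C2C12 is an immortalized mouse myoblast line that leaves the cell cycle and fuses into myotubes once serum is withdrawn. RNA was sequenced from 3 cultures of *Hnrnpa2b1* KO cells and 3 of *Hnrnpa2b1* WT cells, KO1-KO3 and WT1-WT3, all harvested after 2 days of differentiation by serum withdrawal and ITS supplementation. The KO had been made with CRISPR-Cas9 and puromycin selection, and the methods describe 3 independent clones of each genotype picked with a cloning ring. Which clone gave which library is not stated, and a scrambled guide is named as the control only in a figure legend. A clone carries its own history as well as its edit, and with 3 libraries a genotype the p-values measure the spread between these libraries only. *Hnrnpa2b1* (ENSMUSG00000004980) encodes the RNA-binding protein whose loss the study set out to examine in myogenic cells. Its level was 159, 195 and 249 CPM (counts per gene relative to the library total, after TMM scaling) across KO1-KO3, against 225, 229 and 252 across WT1-WT3. The genotypes overlapped (log2 fold change −0.23, SE 0.18, adjusted p = 0.381), so counts over the whole gene do not separate them, and genotypes are used as labelled. The study checked its clones for the protein by immunofluorescence and Western blot, and RNA counts do not measure protein.

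Muscle, fat, bone and cartilage cells arise from related mesenchymal precursors, and each fate is led by a few transcription factors. In fat, C/EBPβ and C/EBPδ act early and induce PPARγ and C/EBPα, which then hold each other on and drive genes of lipid storage, while PRDM16 directs precursors towards brown fat. In bone, RUNX2 acts upstream of Osterix, the product of *Sp7*, and alkaline phosphatase (*Alpl*) serves mineralization, whereas SOX9 is the leading factor of cartilage. Myoblasts are known to take on fat or bone features when exposed to the right ligands.

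The cells carried the muscle label by their markers. All 10 muscle markers were detected, *Mymk* under its older symbol *Tmem8c*, and their summed level lay between 8445 and 21712 CPM in KO libraries and between 14910 and 18925 CPM in WT libraries. *Myod1*, the myoblast determination factor, and *Cdh15*, M-cadherin, rose by 0.99 and 0.70 on the log2 scale (adjusted p = 0.0141 and 0.0258), and none of the other 8 passed the test. These 2 of 10 are near the 22.7% called over all tested genes and are no result about muscle markers as a group. KO1 was the KO library with the most muscle signal: the median muscle marker was 0.46 above the WT mean there, against −0.57 in KO2 and −0.86 in KO3 (log2). In bulk RNA, fewer cells of a type and less RNA per cell cannot be told apart.

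Of the 10 genes, 7 passed the filter on low counts and 3 of these were called at an adjusted p under 0.05, all higher in KO. Over all 14828 genes tested, 22.7% were called, 12.1% higher and 10.6% lower, with a median log2 fold change of 0.03. *Alpl* passed the filter through its KO libraries alone, so the count of 3 is a description and carries no weight as support. The ranges of the genotypes were separate for *Cebpa*, *Cebpb* and *Alpl*, and 44.3% of all tested genes did not overlap either. An exact permutation test of 3 libraries against 3 cannot give a p below 0.1.

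**Figure D1:**
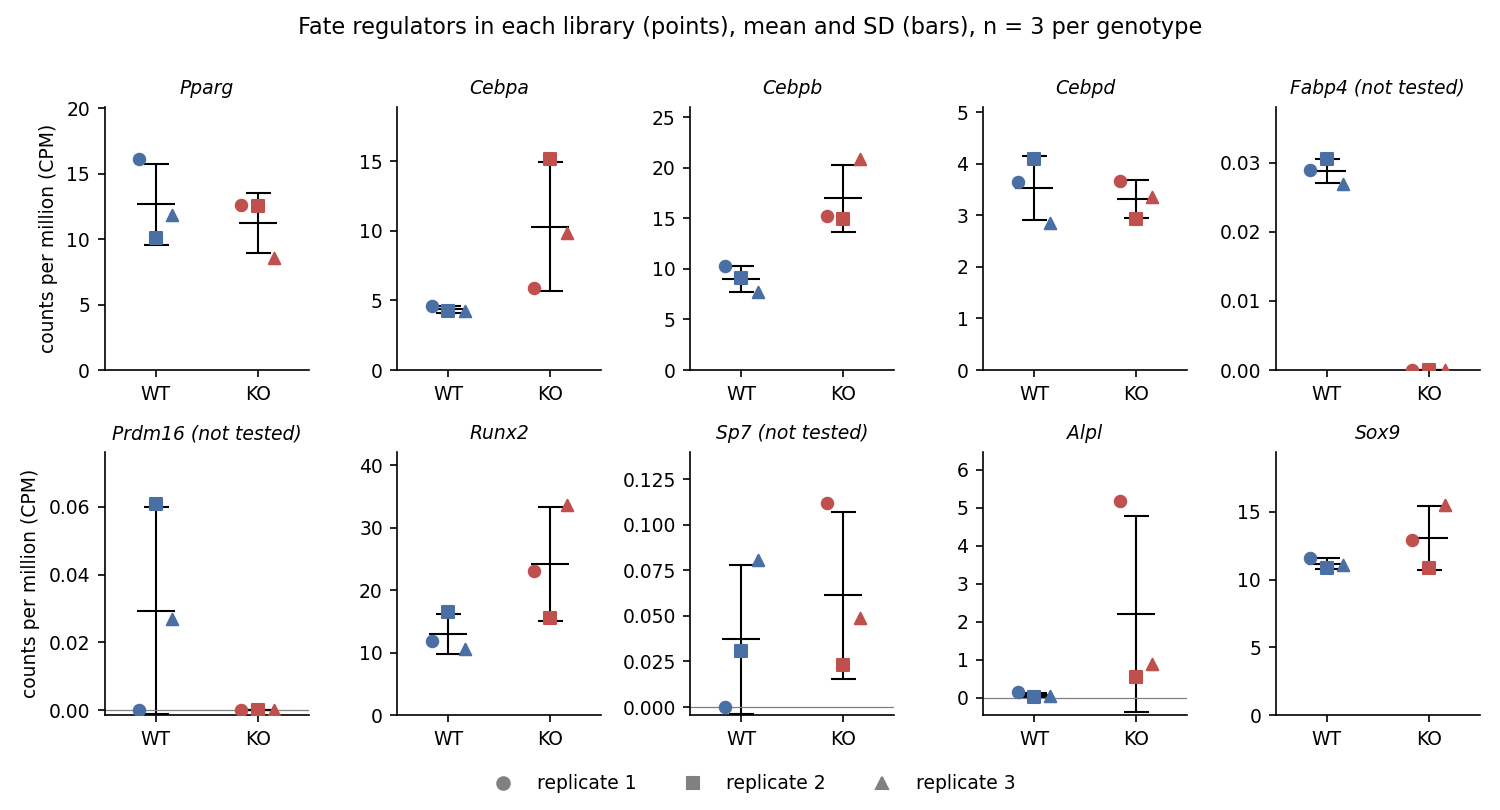
CPM of each of the 10 genes in the 3 WT and 3 KO libraries, with a separate y axis for each gene, points for libraries and bars for the mean and SD. All KO points lie above all WT points for *Cebpa*, *Cebpb* and *Alpl*, and *Fabp4*, *Prdm16* and *Sp7* stay below 0.12 CPM.

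*Cebpb* (ENSMUSG00000056501, GRCm38 chr2:167688915-167690418, plus strand) encodes C/EBPβ, an early factor of adipogenesis. It had 546, 651 and 854 counts in KO1 to KO3, or 15.3, 14.9 and 20.8 CPM. The WT libraries had 10.3, 9.11 and 7.68 CPM, so that even the lowest KO library exceeded every WT library. The mean was 17.0 ± 3.33 CPM in KO and 9.02 ± 1.30 in WT (SD, n = 3 each), a log2 fold change of 0.92 (SE 0.20, adjusted p = 0.0171). TPM, which the authors corrected for transcript length, gave 12.9, 13.5 and 12.2 against 8.64, 4.63 and 6.21, a difference of 0.92 in log2(TPM + 1) (SE 0.20, limma, adjusted p = 0.0155). *Cebpb* was the only 1 of the 6 genes tested in TPM that was called there, where 20.5% of all tested genes were. Its call in counts ended when 1 WT library was left out, with adjusted p of 0.0542 without WT1, 0.0527 without WT2 and 0.0826 without WT3, while the log2 fold change stayed between 0.75 and 1.01.

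Called genes around *Cebpb* were all higher in KO. Within 5 Mb on either side, 35 of 90 other tested genes were called higher, 0 lower and the rest not called. Over all tested genes, 12.1% were called higher and 10.6% lower. Of the 90, 71 had a log2 fold change above 0 (78.9%, against 52.3% of all tested genes), and the median was 0.55. The regional median was near this value in each KO library, at 0.45, 0.42 and 0.46 above the WT mean. *Cebpb* itself lay 0.37 above the regional median. The part of the regional difference in the *Cebpb* value was not tested. *Tmem189*, a gene on the opposite strand whose span reaches into *Cebpb*, was not called (log2 fold change −0.23, adjusted p = 0.645), and since the use of strand is not given, reads on the shared bases cannot be assigned.

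**Figure D2:**
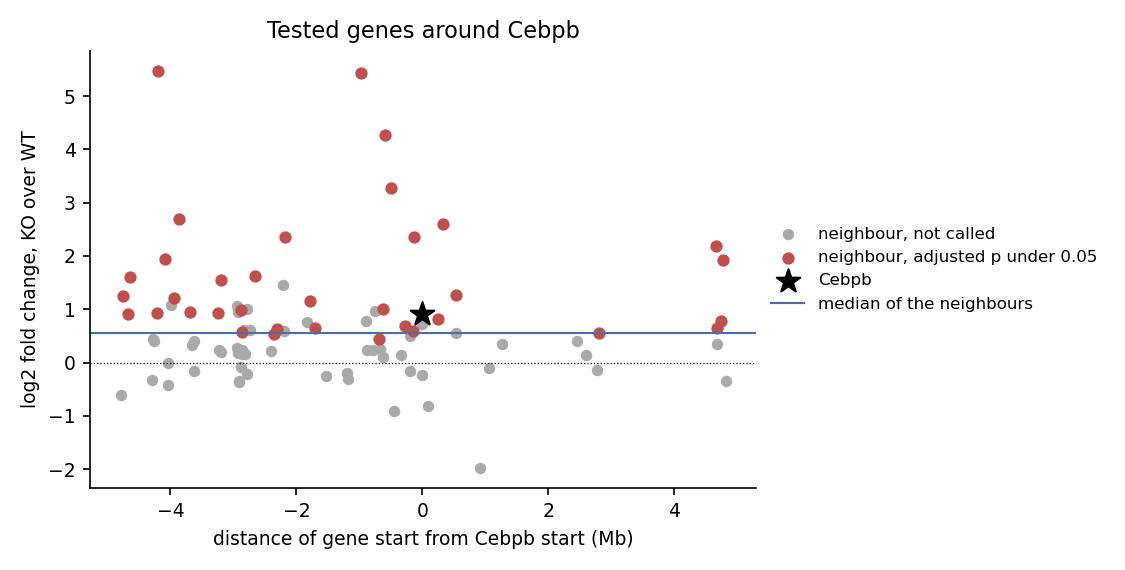
Log2 fold change of KO over WT for each tested gene within 5 Mb of *Cebpb*, by the distance of its start from the *Cebpb* start in Mb, with red points for called genes and a blue line at the median of the 90 neighbours. All 35 called neighbours lie above 0, and *Cebpb* (star) lies above the median of 0.55.

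*Cebpa* (ENSMUSG00000034957, GRCm38 chr7:35119293-35121926, plus strand) encodes C/EBPα, which acts later than C/EBPβ and alongside PPARγ. Its CPM were 5.90, 15.1 and 9.84 across KO1-KO3, against 4.63, 4.21 and 4.23 across WT1-WT3. The WT libraries were nearly level, while the KO libraries spread widely, with KO1 only slightly above WT1. The mean was 10.3 ± 4.63 CPM in KO and 4.35 ± 0.237 in WT (SD, n = 3 each), a log2 fold change of 1.24 (SE 0.33, adjusted p = 0.0323). In TPM the libraries again did not overlap (1.38, 3.65 and 2.86 against 1.17, 1.12 and 1.03), but the difference of 0.73 in log2(TPM + 1) was not called (SE 0.24, adjusted p = 0.0572). The call in counts was lost without KO2 (log2 fold change 0.86, adjusted p = 0.0689), KO3 (1.28, 0.0707), WT1 (1.28, 0.108), WT2 (1.21, 0.0884) or WT3 (1.19, 0.111). The 70 tested neighbours within 5 Mb had a median of 0.19, with 8 called higher and 2 lower. Among all tested genes, 12.1% were called higher and 10.6% lower.

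The 30 bases before the RefSeq start site are shown for these C/EBP genes because both were called higher. The 300 bases around the start (250 before, 50 after) were searched on both strands for 5 motifs. The letters TATAAA stood for the TATA box and GGGCGG for the GC box. The core of a cAMP response element was TGACG, the C/EBP motif TTGCNNAA and the RUNX motif TGTGGT. Capitals mark a match, on the coding strand in both genes: a GC box and then the TGACG core in *Cebpb* (GRCm38.p6, chr2:167688885-167688914, plus strand), and a TATA box in *Cebpa* (chr7:35119263-35119292, plus strand).
Cebpb: GGGCGGcgggaggggccccagcgTGACGca
Cebpa: TATAAAagcggtccccgcgcgggcctggcc
Of 32851 RefSeq mouse promoters of the same length, 35.7% held the GC box, 20.8% the TGACG core and 13.6% the TATA box, so each match is a common feature and is given as a description only.

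*Cebpd* (ENSMUSG00000071637, GRCm38 chr16:15887286-15888466, plus strand) encodes C/EBPδ, the partner of C/EBPβ in early adipogenesis. Its CPM were 3.67, 2.93 and 3.34 across KO1-KO3, against 3.64, 4.08 and 2.86 across WT1-WT3. The libraries were intermixed, and the log2 fold change was −0.09 (SE 0.25, adjusted p = 0.812). In TPM the means were 1.86 ± 0.301 and 1.94 ± 0.420 (SD, n = 3 each). The direction turned when 1 WT library was left out, to 0.017 without WT2. The call on *Cebpb* was thus not shared by *Cebpd*, although no test of the difference between the genes was run.

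*Pparg* (ENSMUSG00000000440, GRCm38 chr6:115361221-115490401, plus strand) encodes PPARγ, the nuclear receptor at the centre of adipogenesis. It had 12.6, 12.6 and 8.59 CPM across KO1-KO3, against 16.1, 10.1 and 11.9 across WT1-WT3. The highest value was in WT1 and the lowest in KO3, and the log2 fold change was −0.17 (SE 0.24, adjusted p = 0.622). Means in TPM were 3.96 ± 0.409 in KO and 4.58 ± 1.21 in WT (SD, n = 3 each), a difference of −0.15 in log2(TPM + 1) (adjusted p = 0.584). Without WT1 the log2 fold change turned to 0.028. A difference of this size was not detectable with these libraries. One of 3 RefSeq starts of *Pparg* has the C/EBP motif just before it, on the reverse strand (GRCm38.p6, chr6:115422036-115422065, plus strand), which is shown because 2 of the 3 C/EBP genes here were called and *Pparg* was not.
Pparg: ttaaccaaccaatcTTTTGCAAgacataga
The motif was found in 10.8% of the 32851 promoters.

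*Fabp4* (ENSMUSG00000062515, GRCm38 chr3:10204088-10208576, minus strand) encodes the fatty acid-binding protein that marks maturing adipocytes. It had 0 counts in every KO library and 1 count in every WT library, among 33605258 to 40558740 counts a library. A count of 0 allows up to 3 counts, which is 0.0687 to 0.0914 CPM across the libraries, so both genotypes were at the limit and no fold change is given. *Prdm16* (ENSMUSG00000039410, GRCm38 chr4:154316125-154636873, minus strand), the brown fat determinant, likewise had 0 counts in KO and 0, 2 and 1 in WT1 to WT3. These limits cover counting error only.

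Of 28 adipogenic factors, 25 were tested, 1 was called higher and 2 lower, and the median log2 fold change was −0.00, where 22.7% of all genes were called. *Wnt10b*, a ligand that restrains adipogenesis, rose by 1.88 (adjusted p = 0.0396), with CPM between 1.22 and 2.08 in WT and of 12.0, 4.03 and 3.12 across KO1-KO3. Without KO1 its rise was 1.04, and the call was lost without WT1 (adjusted p = 0.124), WT2 (0.109) or WT3 (0.101). *Klf9*, an activator of *Pparg*, fell by 1.43 (adjusted p = 0.00708), and *Insr*, the insulin receptor, fell by 1.26 (adjusted p = 0.00453). The other listed factors, such as *Rxra* (0.32, adjusted p = 0.251), the partner of PPARγ, and *Srebf1* (−0.22, adjusted p = 0.318), a regulator of lipid synthesis, were not called.

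Among 26 adipocyte products, 18 were tested, with 2 called higher, 4 lower and a median of −0.08. Over all tested genes, 12.1% were called higher and 10.6% lower. *Slc2a4*, the insulin-responsive glucose transporter of fat and muscle, had 7.72, 2.56 and 1.27 CPM across KO1-KO3, against 52.1, 29.4 and 69.9 across WT1-WT3. Its fall of 3.72 on the log2 scale was the largest of the list (adjusted p = 0.00819), and it fell by 4.72 without KO1. *Fabp5*, the relative of *Fabp4* in skin and macrophages, fell by 1.55 (adjusted p = 0.0048), and *Acsl1*, which activates fatty acids in fat and muscle, fell by 1.22 (adjusted p = 0.00301). *Fabp5* has processed copies in the mouse genome, so its reads are uncertain where the counting could split them. *Plin2*, a lipid droplet coat protein of many cell types, rose by 0.88 (adjusted p = 0.00725), and *Agpat2*, an enzyme of glycerolipid synthesis, by 1.06 (adjusted p = 0.0143). The 5 adipocyte markers *Adipoq*, *Plin1*, *Lep*, *Cfd* and *Cidec* had 3 counts or fewer in every library of either genotype.

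Of 23 partners of PRDM16 and brown fat genes, 15 were tested, with 1 called higher and 2 lower at a median of −0.24. Over all tested genes, 22.7% were called. The 1 called higher, *Bmp7*, passed the filter on low counts through its KO libraries alone, so its call is only a description. *Ppargc1a*, the coactivator that drives mitochondrial genes in brown fat and muscle, had 2.27, 1.40 and 1.03 CPM across KO1-KO3, against 37.6, 21.4 and 37.9 across WT1-WT3. It fell by 4.37 (SE 0.36, adjusted p = 0.000728). *Tbx1*, a T-box factor of beige fat and head muscle, fell by 1.36 (adjusted p = 0.0058). The corepressors *Ehmt1* (−0.18, adjusted p = 0.316) and *Ctbp1* (0.05, adjusted p = 0.782), which act with PRDM16, were not called. *Ucp1*, the uncoupling protein of brown fat, had CPM of 0.0458 in KO2 and 0 in the other 5 libraries.

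*Runx2* (ENSMUSG00000039153, GRCm38 chr17:44495987-44814797, minus strand) encodes the leading factor of the osteoblast fate. It had 826, 682 and 1380 counts across KO1-KO3, against 409, 543 and 391 across WT1-WT3, which is 23.1, 15.6 and 33.7 CPM against 11.8, 16.5 and 10.5. KO1 and KO3 lay above every WT library, whereas KO2 lay below WT2. The mean was 24.1 ± 9.08 CPM in KO and 13.0 ± 3.16 in WT (SD, n = 3 each), a log2 fold change of 0.90 that did not pass the test (SE 0.30, adjusted p = 0.0640). It was called by DESeq2 (0.87, adjusted p = 0.0225), by edgeR without the filter on low counts (0.87, adjusted p = 0.00116) and without KO2 (1.14, adjusted p = 0.0265). Without KO3, the highest library, it was 0.58 (adjusted p = 0.175), and the adjusted p reached 0.204 over the alternatives that were run. In TPM the libraries overlapped too (3.42, 2.38 and 6.14 against 2.17, 2.52 and 2.23), and the difference of 0.52 in log2(TPM + 1) was not called (adjusted p = 0.171). The neighbours within 5 Mb had a median of −0.00, with 9 of 86 called in each direction. These counts are near the 12.1% called higher and 10.6% called lower over all tested genes.

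Several genes share bases with *Runx2* on the opposite strand. *Supt3* (log2 fold change 0.17, adjusted p = 0.531) and *Runx2os1* (0.65, adjusted p = 0.265) were not called. *Runx2os2*, an antisense transcript, had 14, 13 and 36 counts across KO1-KO3, against 0, 4 and 2 across WT1-WT3 and passed the filter on low counts through its KO libraries alone, so its counts are given with no fold change. KO3 held the most reads of both *Runx2* and *Runx2os2*, and without strand these reads cannot be told apart where the genes overlap.

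Upstream of its RefSeq start, *Runx2* carries letters of both the C/EBP and the RUNX motif, which are shown because they stand for products of the genes compared here. The C/EBP motif lies on the coding strand in bases 55 to 26 before the start (GRCm38.p6, chr17:44814653-44814682, minus strand), and the RUNX motif on the reverse strand in bases 90 to 61 (chr17:44814688-44814717, minus strand).
Runx2 with the C/EBP motif: atagtgcTTGCAAAAaataggagttttaaa
Runx2 with the RUNX motif: gaggtcacaaACCACAtgattctgtctctc
The RUNX motif was found in 16.8% of the 32851 promoters, and in 1 of the 9 RefSeq promoters that the 10 genes have.

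*Sp7* (ENSMUSG00000060284, GRCm38 chr15:102356609-102366325, minus strand) encodes Osterix, which acts downstream of RUNX2. It had 4, 1 and 2 counts across KO1-KO3, against 0, 1 and 3 across WT1-WT3. These values are at or near the limit of 3 counts, and no change was detectable at this depth.

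*Alpl* (ENSMUSG00000028766, GRCm38 chr4:137741733-137796384, minus strand) encodes tissue-nonspecific alkaline phosphatase, the enzyme used to score early osteoblasts. It had 185, 24 and 36 counts across KO1-KO3, against 5, 1 and 2 across WT1-WT3, which is 5.18, 0.550 and 0.879 CPM against 0.145, 0.0305 and 0.0539. All KO libraries exceeded all WT libraries, and KO1 stood far above KO2 and KO3. Pooled over libraries, the depth-scaled ratio was 26.6 (exact 95% counting interval 13.3 to 62.3). Against the pooled WT libraries it was 67.6 for KO1 (33.6 to 159), 7.18 for KO2 (3.12 to 18.5) and 11.5 for KO3 (5.25 to 28.6), and these intervals leave out the spread between cultures. The fitted log2 fold change was 4.78 (SE 1.07, adjusted p = 0.0191), a value that depends on the prior count at such low WT counts. Since only the KO libraries took the gene past the filter, the counts and ratios describe it better than this call. It was 3.16 without KO1, and the call was lost without WT1 (5.57, adjusted p = 0.0631), WT2 (0.0610) or WT3 (0.0804). TPM were 1.88, 0.192 and 0.274 in KO and 0.188, 0 and 0.0134 in WT, too low for the filter on TPM. Among the 135 tested neighbours, 22 were called higher and 5 lower, with a median of 0.19. The shares over all tested genes were 12.1% higher and 10.6% lower.

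One of the 2 RefSeq starts of *Alpl* has a pair of GC boxes just before it, on the coding strand and sharing 1 base (GRCm38.p6, chr4:137796385-137796414, minus strand). They are shown because *Alpl* had the largest fitted fold change among the 7 tested of the 10 genes.
Alpl: cggggtgcgggccggGGGCGGGGCGGccgg
Neither the RUNX nor the C/EBP motif was found in the searched bases of either *Alpl* start, which says only that these letters are not there.

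**Figure D3:**
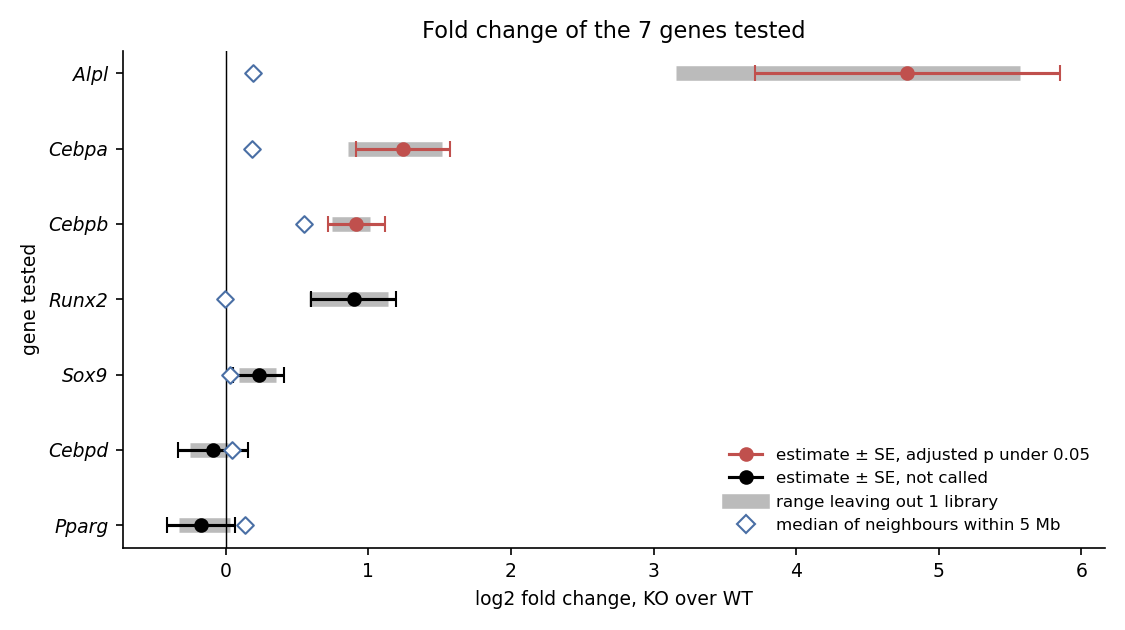
Log2 fold change of KO over WT for the 7 tested genes, as estimate ± SE, with grey bars for the range when 1 library is left out and open diamonds for the median of tested neighbours within 5 Mb. *Alpl*, *Cebpa* and *Cebpb* (red) were called, *Alpl* after passing the filter on low counts through its KO libraries alone, and the diamond of *Cebpb* at 0.55 lies farthest from 0.

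Of 25 osteoblast factors, 22 were tested, 4 were called higher and 2 lower, and the median log2 fold change was 0.29. The share called is near the 22.7% of all genes and is no result about osteoblast factors as a group. *Junb*, an AP-1 factor, rose by 1.58 (adjusted p = 0.000712), from between 86.7 and 93.6 CPM in WT to between 251 and 298 in KO. Its relative *Fosl1* rose by 1.15 (adjusted p = 0.0269), as did *Zfhx4*, a zinc finger and homeobox factor, by 0.81 (adjusted p = 0.0449) with libraries that overlapped. *Wwtr1* and *Yap1*, which encode the Hippo pathway coactivators TAZ and YAP, fell by 0.72 and 0.54 (adjusted p = 0.0169 and 0.0199). *Cbfb*, the DNA-binding partner of RUNX2, was not called (0.27, adjusted p = 0.254).

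Of 27 bone matrix and mineral genes, 23 were tested, with 5 called higher, 3 lower and a median of 0.43. Over all tested genes, 12.1% were called higher and 10.6% lower. One of the 5, *Pth1r*, had 41, 21 and 26 counts across KO1-KO3, against 6, 7 and 5 across WT1-WT3. It passed the filter on low counts through its KO libraries alone, so these counts are given as a description. *Omd*, the matrix protein osteomodulin, had 9.32, 26.7 and 26.6 CPM across KO1-KO3, against 2.31, 1.74 and 3.93 across WT1-WT3 and rose by 2.97 (adjusted p = 0.00617). *Bmp4*, an osteogenic ligand, rose by 2.22 (adjusted p = 0.00914), and *Phex*, a regulator of phosphate, by 1.83 (adjusted p = 0.0396). Without KO2 the value for *Phex* was 1.20 and not called (adjusted p = 0.0936). *Postn*, which encodes periostin, fell by 2.57 (adjusted p = 0.0425), *Dmp1*, an osteocyte matrix protein, by 2.11 (adjusted p = 0.0137) and *Slc20a2*, a phosphate transporter, by 1.27 (adjusted p = 0.03).

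The 6 osteoblast markers were not uniform. *Spp1*, osteopontin, rose by 0.96 (adjusted p = 0.0314), with 517, 265 and 449 CPM in KO against 179, 236 and 217 in WT. *Bglap*, osteocalcin, had 5.04 CPM in KO1 but 0.435 and 0.317 in KO2 and KO3, against 0.0809 to 0.318 in WT, so that KO1 alone was far above the WT libraries. *Bglap2*, its near-identical copy, was also highest in KO1, with 28.3 CPM there and 2.76 to 4.31 elsewhere, and reads of the pair could be split by the counting. KO1, the library with the most *Alpl*, was thus also the one with the most osteocalcin, but not all bone genes peaked there. *Dmp1* had 0.616 CPM in KO1, against 2.11 and 1.56 in KO2 and KO3. *Phex* had 1.68 CPM in KO1, against 7.74 and 4.10 in KO2 and KO3. *Dmp1* fell, as given above, and *Ibsp* had 3 counts or fewer in every library. The summed level of the 6 markers was 271 to 551 CPM in KO and 190 to 245 in WT, nearly all of it *Spp1*, and its part in the *Alpl* and *Runx2* values was not tested.

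*Sox9* (ENSMUSG00000000567, GRCm38 chr11:112782224-112787760, plus strand) encodes the leading factor of the chondrocyte fate. Its CPM were 12.9, 10.9 and 15.6 across KO1-KO3, against 11.6, 10.8 and 11.0 across WT1-WT3. KO2 fell among the WT libraries, and the log2 fold change was 0.23 (SE 0.18, adjusted p = 0.371). TPM gave 2.17 ± 0.657 in KO and 1.80 ± 0.133 in WT (SD, n = 3 each), a difference of 0.16 in log2(TPM + 1) (adjusted p = 0.532). The gene was not called under any alternative that was run.

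Of 19 chondrocyte factors, 12 were tested, with 2 called higher, 1 lower and a median of 0.28. Over all tested genes, 22.7% were called. One of the 2 called higher, *Foxa2*, had 10, 87 and 27 counts across KO1-KO3, against 1, 2 and 3 across WT1-WT3. It passed the filter on low counts through its KO libraries alone, so these counts are given as a description. *Wwp2*, a ubiquitin ligase that acts with SOX9, rose by 0.51 (adjusted p = 0.018). *Mef2c*, which serves hypertrophic cartilage but is also a muscle factor, had 17.1, 2.34 and 1.17 CPM across KO1-KO3, against 80.8, 162 and 189 across WT1-WT3 and fell by 4.40 (adjusted p = 0.0169). It fell by 6.35 without KO1, and the call was lost without WT3 (adjusted p = 0.0556). *Sox5* (0.15, adjusted p = 0.813) and *Sox6* (0.20, adjusted p = 0.839), the partners of SOX9, were not called. Among 23 cartilage matrix genes, 9 were tested and 2 were called, *Col27a1* at 2.38 higher (adjusted p = 0.0304) and *Col11a2* at 1.29 higher (adjusted p = 0.0123). Without KO3 the value for *Col27a1* was 1.78 and not called (adjusted p = 0.0881). *Col2a1*, *Col9a1*, *Matn1* and *Hapln1*, markers of cartilage cells, had 3 counts or fewer in every library.

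**Figure D4:**
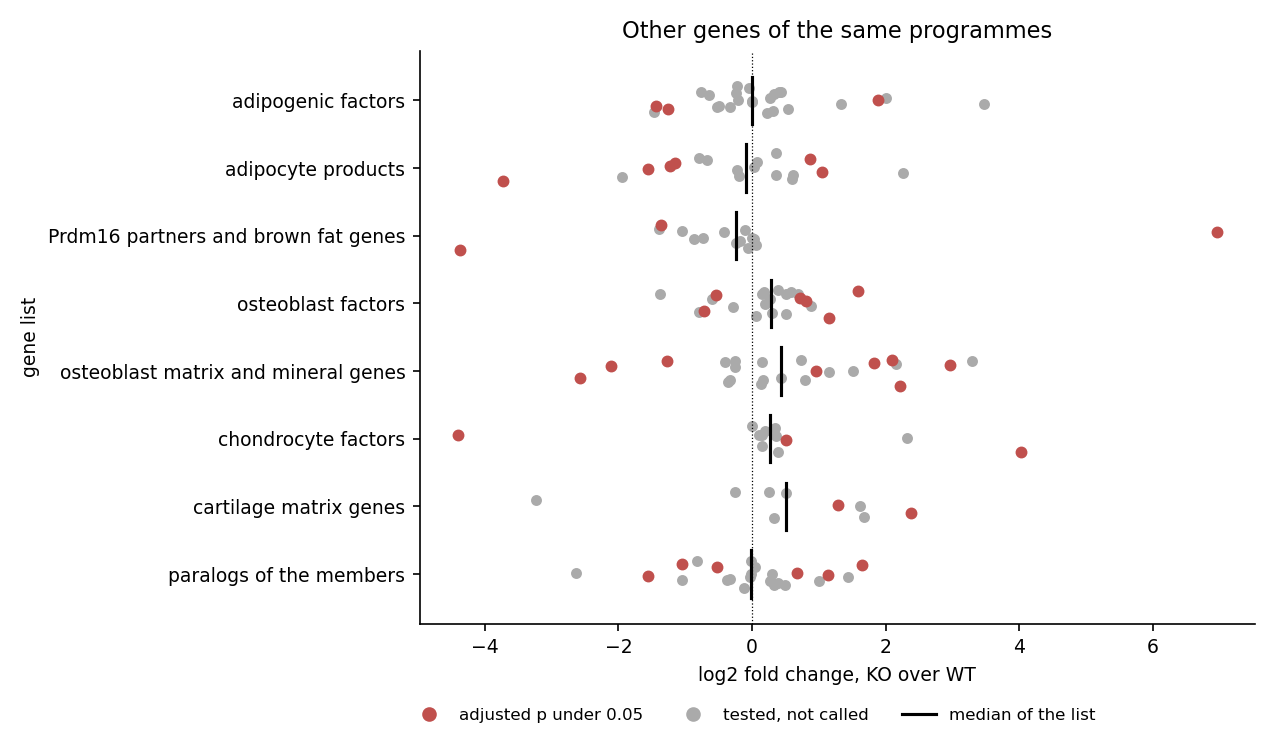
Log2 fold change of KO over WT for every tested gene in 8 lists of fat, bone and cartilage genes and of relatives of the 10 genes, with red points for adjusted p under 0.05 and a black bar for the list's median. Called genes lie on both sides of 0 in every list but that of cartilage matrix genes, where both lie above 0. The only called brown fat or PRDM16 partner gene above 0 is *Bmp7*, which passed the filter through its KO libraries alone.

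Over these 15 lists, markers included, 43 of 166 tested genes were called, 26 higher and 17 lower, with a median of 0.15, where 22.7% of all genes were called. The 26 include *Bmp7*, *Foxa2* and *Pth1r*, which passed the filter on low counts through their KO libraries alone. With each library left out in turn, 12 of the 35 genes named by rule from the lists kept their call every time, namely *Klf9*, *Insr*, *Plin2*, *Slc2a4*, *Fabp5*, *Acsl1*, *Ppargc1a*, *Tbx1*, *Junb*, *Omd*, *Mecom* and *Ly6a*. The other 23 lost it without at least 1 library.

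Of the close relatives of the 10 genes, 23 were tested, with 3 called higher, 3 lower and a median of −0.01, again near the 22.7% called over all genes. *Runx1*, the blood-forming member of the RUNX family, had 167, 136 and 253 CPM across KO1-KO3, against 80.6, 96.1 and 77.0 across WT1-WT3. It rose by 1.13 (adjusted p = 0.0143), close to the estimate of 0.90 for *Runx2*, and KO3 was the highest library of both genes. *Runx3* was not called (0.50, adjusted p = 0.117). In the PRDM family *Prdm2* rose by 0.67 (adjusted p = 0.0087), while *Mecom*, the nearest relative of *Prdm16*, fell by 1.05 (adjusted p = 0.0102). Of the other C/EBP genes, *Cebpg* stayed at 72.9 to 97.0 CPM in KO and 76.9 to 110 in WT (−0.02, adjusted p = 0.945) and *Cebpe* had no count. *Sox8*, a relative of *Sox9*, was not called (0.30, adjusted p = 0.485).

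Levels can be compared between genes in TPM. In WT cells *Cebpb* was highest with a mean of 6.49, followed by *Pparg* with 4.58, *Runx2* with 2.31, *Cebpd* with 1.94, *Sox9* with 1.80, *Cebpa* with 1.10 and *Alpl* with 0.0670. The libraries of *Cebpb* and *Pparg*, of *Runx2* and *Cebpd* and of *Cebpd* and *Sox9* overlapped, so only the steps from *Pparg* to *Runx2*, from *Sox9* to *Cebpa* and from *Cebpa* to *Alpl* exceeded the spread. In KO cells the order was *Cebpb* (12.9), *Runx2* (3.98), *Pparg* (3.96), *Cebpa* (2.63), *Sox9* (2.17), *Cebpd* (1.86) and *Alpl* (0.781), and only *Cebpb* stood clear of its neighbour.

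The KO libraries did not carry the same pattern in CPM. KO1 had the most *Alpl* and the least *Cebpa*, KO2 the most *Cebpa* and the least *Runx2* and *Alpl*, and KO3 the most *Cebpb*, *Runx2* and *Sox9* and the least *Pparg*. In TPM KO3 had the least *Cebpb* of the KO libraries, at 12.2. Markers of fibro-adipogenic progenitors, the mesenchymal cells of muscle that can form fat and bone, were called higher in 4 of 7 tested, lower in 0 and not called in 3, at a median of 1.31, where 12.1% of all genes were called higher. Among them *Ly6a*, the antigen Sca-1, rose by 2.76 (adjusted p = 0.00236), *Pdgfrb*, a growth factor receptor, by 2.32 (adjusted p = 0.0123) and *Gsn*, gelsolin, by 1.31 (adjusted p = 0.0313). Without KO2 the value for *Gsn* was 0.82 (adjusted p = 0.0404). The median marker lay 0.75, 1.03 and 1.48 above the WT mean in KO1 to KO3, and the list's summed level was 6597 to 11270 CPM in KO and 4145 to 5696 in WT. None of the 8 markers was at 0. The cultures were of a myoblast line, so RNA of these markers does not identify a separate cell type. The relation of these markers to the values of *Cebpa*, *Cebpb*, *Alpl* and *Runx2* was not tested. Of 4 macrophage markers 1 was tested and not called, and of 4 endothelial markers 2 were tested and *Kdr*, a receptor for vascular growth factor that passed the filter through its WT libraries, had 0.056 to 0.366 CPM in KO and 0.723 to 1.37 in WT.

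**Figure D5:**
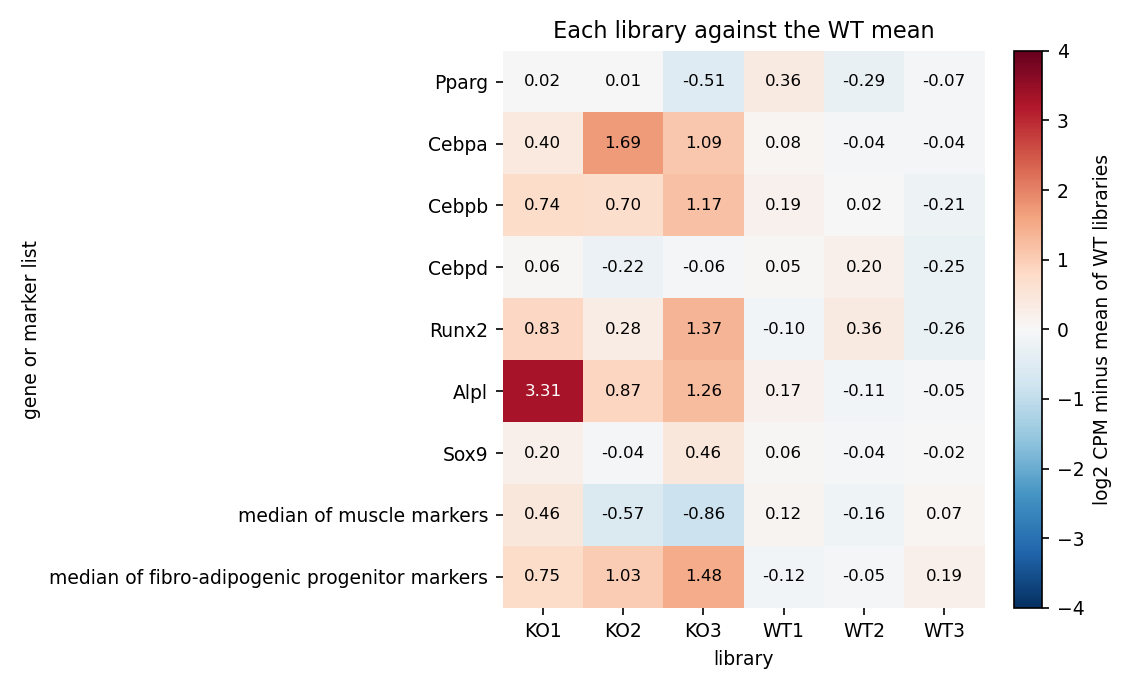
Log2 CPM (with 0.5 CPM added) of each library minus the mean of the WT libraries, for the 7 tested genes and for the median muscle and fibro-adipogenic progenitor marker. *Alpl* peaks in KO1 (3.31), *Cebpa* in KO2 (1.69) and *Runx2* in KO3 (1.37), while the WT libraries stay within 0.37 of their mean.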

How the data were processed

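Total RNA of 3 *Hnrnpa2b1* KO and 3 WT cultures was sequenced, and per the labels and methods the authors aligned the reads with STAR. The authors deposited raw counts per gene, without normalization, and StringTie TPM per library, which were summed per gene identifier here. The counter's version, annotation release and use of strand are not given in the sources used here. The labels name the build mm9 and the methods GRCm39, but the deposited coordinates fit GRCm38, which is used throughout. All 6 columns of counts were used and 0 left out.

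The genes, lists and tests were chosen with earlier results of these data known. Counts (33605258 to 40558740 a library) were scaled by TMM, filtered with filterByExpr and tested two-sided with the quasi-likelihood test of edgeR 4.0.16 in R 4.3.3, with Benjamini-Hochberg adjustment over all 14828 genes and a threshold of 0.05. The SE of a log2 fold change in counts was its absolute value divided by the square root of that test's F statistic. Genes that reached a TPM of 1 in 3 or more libraries were tested as log2(TPM + 1) with limma 3.58.1. A fold change on that scale understates low genes. Named from the lists were the 3 largest rises and 3 largest falls among called genes whose mean log2 CPM was 0 or more. One gene that this rule names is not reported here. Alternatives were DESeq2 1.42.0, RLE size factors, no filter, a replicate block, a pseudocount of 0.1 and each library left out. Symbols absent from the table were matched through RefSeq synonyms. Promoters are RefSeq's on GRCm38.p6, with entries for 6 of the 10 genes. The steps were tested on simulated data. Splicing, eCLIP and single-cell data were not analysed here.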

Additional observations from a re-analysis of the deposited data

How the results depend on the processing

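Of the comparisons of single genes under alternatives, 379 kept direction and side of the threshold, 94 lost a call, 5 gained one and 6 turned direction, all 6 in genes near 0. With a library left out, the log2 fold change in counts ranged from −0.33 to 0.028 for *Pparg* (above 0 without WT1) and from −0.25 to 0.017 for *Cebpd* (without WT2). In TPM the range was −0.26 to 0.020 for *Pparg* (without WT1) and −0.16 to 0.049 for *Cebpd* (above 0 without KO2, WT1 or WT2). Genes called ranged from 933 (without WT1) to 4712 (without KO1) with each library left out, against 3361, and were 2088 without KO3, 2100 without WT2 and 1288 without WT3. Of the 10 genes, 0 to 3 were called with edgeR when a library was left out. The 0 came without WT1, WT2 or WT3, where 3 to 4 had an unadjusted p under 0.05; DESeq2 on all libraries called 4. In TPM 1 was called, 0 to 2 with a library left out (2 without KO1, 0 without WT3), and 0 with no filter on TPM, where limma gave 2 an unadjusted p under 0.05. Listed genes called went from 43 to 72 with no filter on low counts and to 15 to 66 with a library left out (66 without KO1, 15 without WT1, 27 without WT2, 19 without WT3). Fewer libraries and, without the filter, more genes enter these fits; the cause of single changes was not tested. Replicate numbers did not pair the libraries: the correlations of same-numbered deviations were 0.16, −0.12 and −0.05. With a replicate block 2520 genes, 33 listed genes and 2 of the 10 genes were called in counts (*Cebpa* not, adjusted p = 0.0588) and 2 in TPM. Counts of 3 or fewer in a library limit what can be said of *Fabp4*, *Prdm16* and *Sp7*.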

Other observations

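Some listed genes outside the naming rule had KO libraries that disagreed with each other, and they were chosen after their values were seen. *Zfp423*, a factor of preadipocyte commitment, had 5, 127 and 257 counts across KO1-KO3, against 9, 10 and 10 across WT1-WT3, with KO1 no higher than the WT libraries. *Ebf1*, an activator of *Pparg* and *Cebpa*, was likewise lowest in KO1 among the KO libraries, with 5.88, 29.7 and 23.4 CPM in KO and 6.17 to 10.7 in WT (1.34, adjusted p = 0.103). *Col1a1*, the main collagen of bone, had 449 and 440 CPM in KO1 and KO3, but 42.4 in KO2, below the WT range of 46.4 to 107 (2.16, adjusted p = 0.076). *Plin4*, a lipid droplet protein, was highest in KO2 at 23.5 CPM and 3.72 to 4.83 in the other KO libraries, above 1.77 to 2.83 in WT (2.25, adjusted p = 0.0505).

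*Bmp7*, a ligand that promotes brown fat and bone, had 94, 67 and 26 counts across KO1-KO3, against 0, 0 and 1 across WT1-WT3. It passed the filter on low counts through its KO libraries alone, so these counts are given as a description. *Col11a1*, a collagen of cartilage and embryonic muscle connective tissue, had 18.8 to 24.2 CPM in WT and 0.336, 0.0458 and 6.42 in KO1 to KO3. The fall of *Col11a1* was not called.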
